A study of Drosophila melanogaster with 2 samples.

Results

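Of the 3917 reproducible binding summits of the forkhead factor fd3F in Drosophila melanogaster embryos, 764 (19.5%, exact 95% interval 18.3 to 20.8%) lay between the starts of a head-to-head gene pair. A summit was counted when it fell between the start sites of 2 protein-coding genes on opposite strands that point away from each other, with the starts at most 1000 bp apart and any annotated transcript start allowed. The stretch between those starts is called the gap here, and classes of distance below exclude their lower bound and include their upper bound. The data came from 1 group, embryos aged 8 to 18 h from a transgenic line in which fd3F carries green fluorescent protein (GFP) at its C-terminus. Sonicated chromatin was precipitated with an anti-GFP antibody and sequenced (ChIP-seq) in 2 biological replicates, numbered 1 and 3. Whole embryos of unrecorded sex were used, so binding in different cell types cannot be told apart, and no second condition was compared. Peaks were listed for replicate 1, for replicate 3 and for both pooled (30000 each), and the reproducible list was drawn from them by irreproducible discovery rate. The lists hold no read counts, so sequencing depth is unknown. Regions of 1 genome are not replicates. Every share is therefore given with an interval that covers counting error only, and the 3917 peaks of highest signal of each replicate (its best peaks) show the spread between replicates.

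Head-to-head genes share 1 stretch of upstream DNA that serves transcription in both directions. The compact Drosophila genome holds many such pairs, often with housekeeping genes on 1 or both sides. Their promoters are known for elements such as the DRE (TATCGATA), bound by DREF, and Motif 1 (GGTCACAC), bound by M1BP, more often than for a TATA box. fd3F acts in chordotonal neurons, the stretch and sound sensors of the fly, where it is needed for genes of the motile cilium, and forkhead proteins bind variants of the sequence GTAAACA.

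The gaps below show what lies between 2 divergent starts under a summit. They were taken from the gaps of 80 to 300 bp on arms 2L, 3L, 3R, 4 and X that have no annotated exon between the starts. The first 5 are among the 8 such gaps of highest signal and show a forkhead word, a DRE or no match under a strong summit. The last is the highest of these gaps with a Motif 1 match. Each run covers the whole gap on the plus strand of build dm6, with the minus-strand gene to its left and the plus-strand gene to its right. Capitals mark matches, on either strand, to a forkhead word, to TATCGATA or to GGTCACAC. The forkhead words were ACAAACA or ACAAATA or ATAAACA or ATAAATA or GCAAACA or GCAAATA or GTAAACA or GTAAATA. A match is a string of letters and was not tested as a binding site.
Art3/mRpS10 (chr3R:15229409-15229664): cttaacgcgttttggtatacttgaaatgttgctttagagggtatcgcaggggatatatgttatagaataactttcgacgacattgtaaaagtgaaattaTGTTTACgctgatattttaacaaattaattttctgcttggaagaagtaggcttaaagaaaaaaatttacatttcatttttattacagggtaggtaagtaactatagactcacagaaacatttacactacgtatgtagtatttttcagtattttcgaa
Tcs5/CHMP2B (chr3L:5139396-5139618): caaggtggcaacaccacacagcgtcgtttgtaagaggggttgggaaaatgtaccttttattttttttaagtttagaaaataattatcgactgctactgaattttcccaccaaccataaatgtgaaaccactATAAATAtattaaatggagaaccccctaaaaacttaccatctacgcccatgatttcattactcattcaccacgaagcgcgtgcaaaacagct
Atat/Shc (chr3L:9426759-9427009): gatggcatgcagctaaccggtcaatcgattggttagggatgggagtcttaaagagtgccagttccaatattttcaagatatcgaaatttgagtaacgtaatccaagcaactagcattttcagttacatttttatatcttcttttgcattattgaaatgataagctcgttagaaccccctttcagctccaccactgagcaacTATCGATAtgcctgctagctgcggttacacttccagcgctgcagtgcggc
Lon/PIG-F (chr3L:19612200-19612454): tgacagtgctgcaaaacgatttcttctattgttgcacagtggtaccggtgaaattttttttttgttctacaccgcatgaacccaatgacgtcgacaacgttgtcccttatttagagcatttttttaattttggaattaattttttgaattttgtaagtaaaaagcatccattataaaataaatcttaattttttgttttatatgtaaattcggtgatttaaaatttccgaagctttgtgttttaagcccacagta
Cp190/CG4338 (chr3R:15275242-15275521): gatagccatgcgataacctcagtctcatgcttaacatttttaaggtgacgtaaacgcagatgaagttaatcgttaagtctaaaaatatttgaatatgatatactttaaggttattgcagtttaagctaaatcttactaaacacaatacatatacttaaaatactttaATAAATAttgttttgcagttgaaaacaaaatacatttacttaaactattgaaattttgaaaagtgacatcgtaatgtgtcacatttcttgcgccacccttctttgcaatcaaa
CG10214/CG10375 (chr3R:23767489-23767711): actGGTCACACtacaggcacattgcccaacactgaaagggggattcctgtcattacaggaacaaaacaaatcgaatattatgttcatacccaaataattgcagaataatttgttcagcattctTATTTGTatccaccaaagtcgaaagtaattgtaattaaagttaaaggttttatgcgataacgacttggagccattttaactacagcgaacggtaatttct

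In the gap between Art3, an arginine methyltransferase gene, and mRpS10, a gene of the small mitochondrial ribosomal subunit, the summit stood at base 125 of 256, close to the centre. Its forkhead word was centred 22 bp to the left of the summit; distances of words are to their centre throughout. The Tcs5/CHMP2B summit stood at base 110 of 223, with 1 forkhead word 25 bp to its right. CHMP2B is a gene of the ESCRT-III complex, which cuts membranes. Between Atat, an alpha-tubulin acetyltransferase gene, and the adaptor gene Shc, the summit stood at base 119 of 251 and the single match was a DRE 87 bp to its right. The Lon/PIG-F gap, next to a gene for a mitochondrial protease, held none of these words, although its summit ranked 46 of 3917. The Cp190 gap, next to a gene for an insulator cofactor, had its forkhead word 7 bp from the summit. The weakest of the set was CG10214/CG10375, at rank 2293, where Motif 1 lay 103 bp from the summit and a forkhead word 16 bp from it.

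The 764 summits occupied the gaps of 742 gene pairs. Over the whole annotation 2515 pairs qualified, so 29.5% of them (exact 95% interval 27.7 to 31.3%) held a reproducible summit, with 1482 genes on their flanks. The best peaks of replicate 1 put 694 summits in 679 pairs (27.0%), and those of replicate 3 put 813 summits in 784 pairs (31.2%). Both lists shared 619 pairs, which were 91.2% of the replicate 1 pairs and 79.0% of the replicate 3 pairs. In the longer pooled list, which reaches far into low signal, 1459 pairs (58.0%) held a summit. No list at all had a summit in 828 pairs (32.9%).

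Gaps made up 0.827% of the 6 chromosome arms. They held 69.0 reproducible summits per 100 kb (62.6 in replicate 1 and 73.4 in replicate 3), against 8.42 per 100 kb in the 1000 bp upstream of genes outside pairs and 2.37 per 100 kb in all sequence outside gaps. Of genes in such pairs, 36.0% had a reproducible summit within 1000 bp of a start, against 12.4% of the 9018 genes outside pairs, and 20.8% of all 13945 protein-coding genes. The densities were also compared at the same distance from a start. At 100 to 150 bp from the nearer start there were 144 summits per 100 kb in gaps, against 25.8 per 100 kb upstream of other starts. The ratio at that distance was 5.59 in the reproducible list, 5.29 in replicate 1 and 6.06 in replicate 3. At 50 to 100 bp it was 6.34 (5.16 and 6.68 in replicates 1 and 3), and up to 50 bp it was 4.84 (4.81 and 4.76). It was smaller farther out. At 150 to 200 bp there were 85.1 summits per 100 kb in gaps against 25.9 upstream of other starts, at 200 to 300 bp 29.2 against 19.4, and at 300 to 500 bp 13.0 against 10.2. A base in a gap is upstream of 2 starts and a base of the other kind of at least 1, which the ratios do not correct for.

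**Figure D1:**
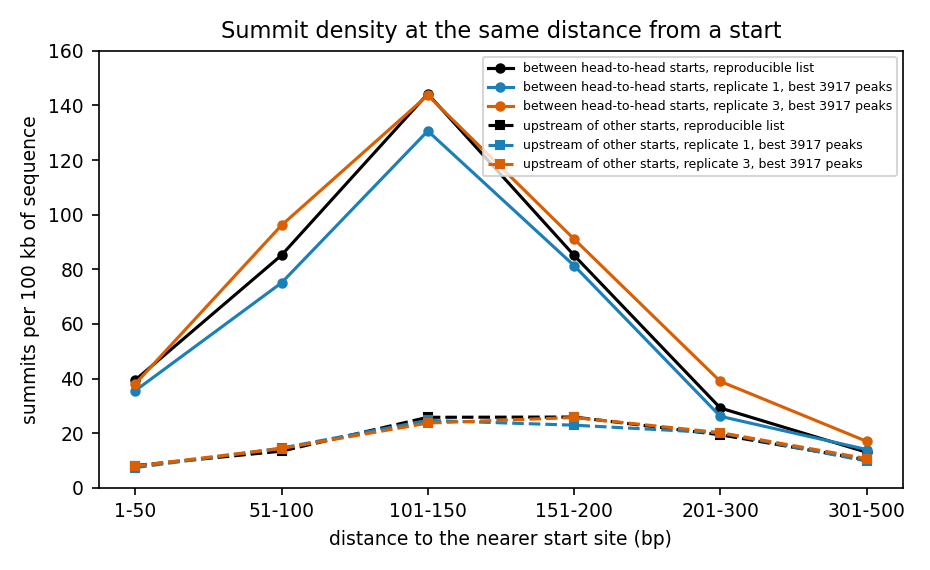
Reproducible and replicate summits per 100 kb of sequence (vertical axis) by distance to the nearer protein-coding start (horizontal axis, bp), between head-to-head starts (circles, solid lines) and upstream of other starts (squares, dashed lines). The gap curves peak at 100 to 150 bp, at 144 per 100 kb in the reproducible list, where the other starts have 25.8 per 100 kb.

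The share of pairs with a summit varied with gap length and was highest at middle lengths. Pairs were grouped by the shortest distance between their starts. A summit was found in 222 of 513 pairs 200 to 300 bp apart (43.3%, exact 95% interval 38.9 to 47.7%) and in 235 of 615 pairs 300 to 500 bp apart (38.2%, 34.4 to 42.2%). Below and above that range the shares were lower, at 78 of 407 pairs up to 100 bp apart (19.2%), 68 of 335 pairs 100 to 200 bp apart (20.3%) and 139 of 645 pairs 500 to 1000 bp apart (21.6%). The order was similar in both replicates: the 200 to 300 bp pairs stood highest, at 40.4% in replicate 1 and 44.2% in replicate 3. Occupied and empty pairs had nearly the same median length, 301.5 bp against 300 bp, but occupied pairs were bunched around it, with quartiles of 226 and 437 bp against 133 and 535 bp in empty pairs. Many genes have several starts, and 624 of 764 summits lay in the shortest gap of their pair. Few lay in a very short gap. Only 12 summits stood between starts at most 100 bp apart, because the summits counted for pairs of that class mostly lay between alternative, more distant starts of the same genes.

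**Figure D2:**
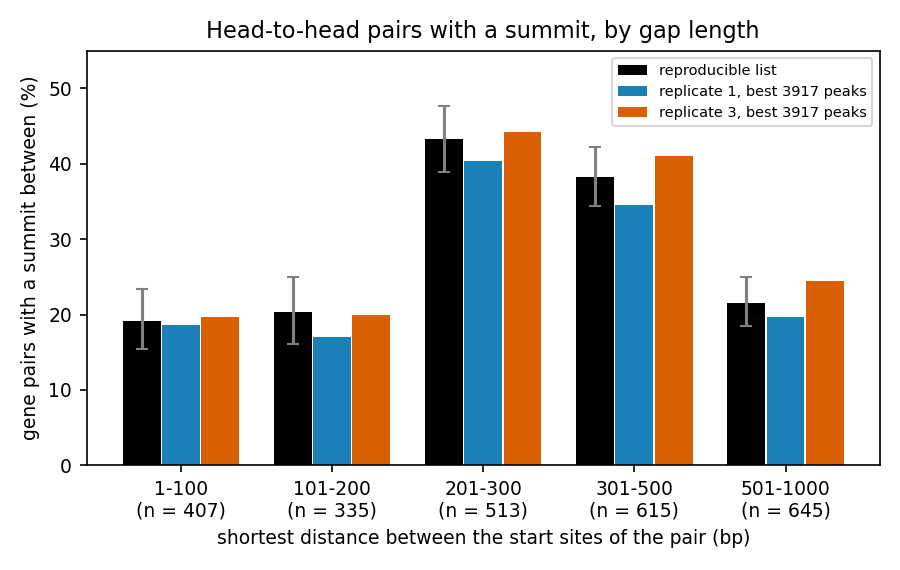
Share of head-to-head pairs with a summit between their starts (vertical axis, %) by the shortest distance between the starts (horizontal axis, bp, with the number of pairs), for the reproducible list (black, with exact 95% intervals) and the best peaks of replicates 1 (blue) and 3 (orange). Bars of all 3 lists are highest at 200 to 300 bp, at 43.3% in the reproducible list.

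Within the gap, summits kept off the starts themselves. The median distance to the nearer start was 112 bp (quartiles 76.75 and 147 bp) and to the farther start 220.5 bp, and 534 summits (69.9%, exact 95% interval 66.5 to 73.1%) fell in the central 50% of the gap. The best peaks of the replicates gave 72.3% for replicate 1 and 69.5% for replicate 3. Summits leaned to neither strand, since 48.2% lay nearer the minus-strand start. The 1112 reproducible summits upstream of other starts had a median distance of 239.5 bp (quartiles 145 and 418 bp). Those summits could lie up to 1000 bp from their start. A summit in a gap can be no farther from its nearer start than the centre of the gap is. The medians of 112 and 239.5 bp therefore differ in part by construction, and no conclusion is drawn from their difference.

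The position changed with the length of the gap. In gaps of 200 to 300 bp, 48.2% of 245 summits were within 25 bp of the exact centre, and the medians to the nearer and farther start were 99 and 157 bp. In gaps of 300 to 500 bp the medians were 128.5 and 248 bp, with 23.9% of 280 summits at the centre. In gaps of 500 to 1000 bp the median to the nearer start was 147 bp, the farther start lay at quartiles of 385 and 619 bp, and 6.21% of 177 summits were at the centre. The nearer start can be at most 0.5 of the gap away and 50 bp around the centre are a smaller part of a longer gap, so these distances and shares change with length by construction. The share in the central 50% does not have that limit. It was 82.4% at 200 to 300 bp, 76.1% at 300 to 500 bp and 46.3% at 500 to 1000 bp. In shorter gaps it was lower than at 200 to 300 bp, at 58.3% of 12 summits up to 100 bp and 60% of 50 summits at 100 to 200 bp. Evenly spread summits would give 50%.

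**Figure D3:**
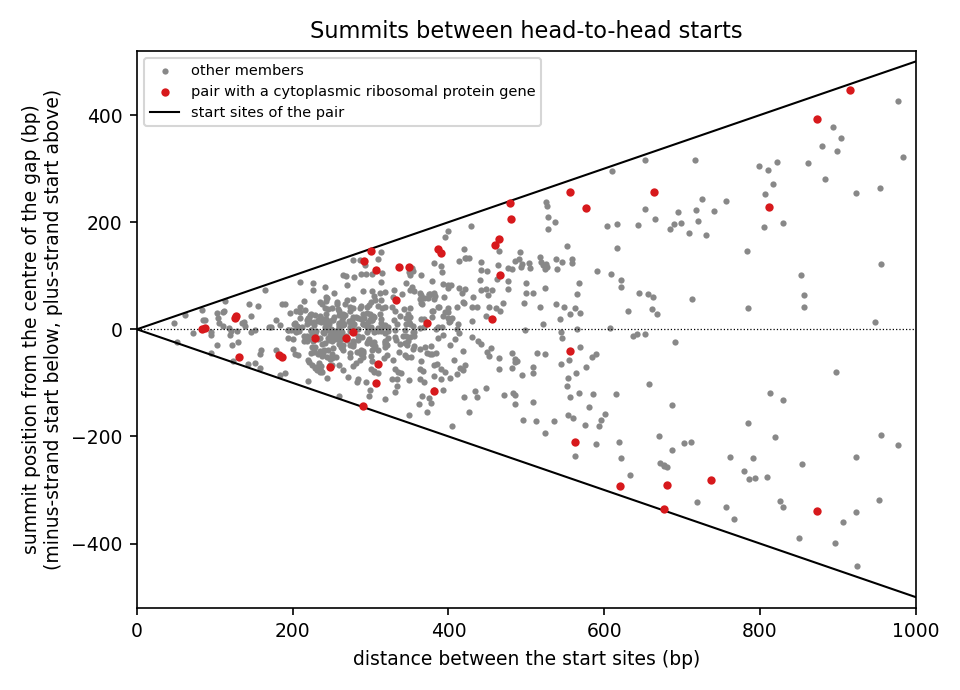
Position of each of the 764 summits relative to the centre of its gap (vertical axis, bp) by the distance between the start sites (horizontal axis, bp). The solid lines are the 2 starts, and red points are gaps with a cytoplasmic ribosomal protein gene, many of which lie along a line while the other summits (grey) gather near the centre of gaps of 200 to 300 bp and spread in longer gaps.

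The replicates placed the summit in much the same spot. Both replicate summits fell in the same gap as the reproducible one for 716 members (93.7%), and in 570 of these (79.6%) they lay on the same side of the centre. In gaps of 500 to 1000 bp, where the sides are far apart, 162 of 172 (94.2%) were on the same side. The intervals were wide relative to the gaps: the median peak was 364 bp, 197 peaks covered both starts, 343 covered 1 start and 224 covered neither. The lists therefore do not say which gene of a pair a summit goes with.

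By annotation, 560 of the 764 summits (73.3%) were outside protein-coding genes, 115 in exons outside coding sequence, 88 in introns and 1 in a coding exon. Only 5 gaps also held the start of a noncoding gene.

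Pairs with 2 summits were rare, at 22 of 742 occupied pairs, and no pair had more. The median length of their gaps, the longer one where the summits lay in different gaps of the pair, was 562 bp and the median distance between the summits 211 bp. In 17 of the 22 pairs each summit was nearer a different start. Between Ac78C, an adenylate cyclase gene, and chb, a microtubule plus-end protein gene, the starts were 923 bp apart. One summit (signal 729) lay 207 bp from chb and the other (signal 473) 120 bp from Ac78C. Between l(1)G0320 and RpS28b, 873 bp apart, the summits lay 97 bp from l(1)G0320 and 44 bp from RpS28b.

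Genes for cytoplasmic ribosomal proteins, the parts of the main protein-making machine of the cell, had the highest share of the 23 classes counted. Of 56 pairs with such a gene 39 held a summit (69.6%, exact 95% interval 55.9 to 81.2%), with 36 (64.3%) in replicate 1 and 40 (71.4%) in replicate 3, beside 29.5% of all pairs. The class was formed by symbol and includes gene copies such as RpL34a and RpL34b. The highest were RpS27/Nup37 (signal 988, rank 106), RpL34b/CG8132 (signal 773, rank 177) and Ripalpha/RpL7 (signal 646, rank 257). Replicate ranks were 146 and 79 for RpS27/Nup37 in replicates 1 and 3, and 222 and 162 for RpL34b/CG8132.

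The position in the gap was lopsided in that class. Of the 43 summits in ribosomal protein gaps, 36 lay nearer the ribosomal start, 6 nearer the partner, and in the RpL13/Dref gap of 84 bp the summit was 42 bp from each. The median distance was 54 bp to the ribosomal start and 285 bp to the partner. Replicate 1 gave 33 of 37 summits nearer the ribosomal start at a median of 62 bp, and replicate 3 gave 34 of 44 at a median of 81.5 bp. In gaps over 300 bp, 24 of 29 reproducible summits lay nearer the ribosomal start. The RpL8 summit was 12 bp from its start and 904 bp from that of msn, a kinase gene, and the RpL35A summit was 3 bp from its start and 674 bp from that of POLDIP2. The exceptions included the farther summits of RpS28b, RpL18 and RpL23, each in a pair with a second summit nearer the ribosomal start, and sta (247 bp, against 209 bp to inc) and RpLP0-like (46 bp, against 41 bp to 14-3-3zeta). Mitochondrial ribosomal protein genes did not show this lean. Their summits lay nearer the ribosomal start in 11 of 24 cases, with medians of 163.5 bp to that start and 142 bp to the partner. This comparison of distances was made after values had been seen, and no test was run on it.

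Mitochondrial ribosomal proteins had a summit in 24 of 60 pairs (40.0%, exact 95% interval 27.6 to 53.5%), with the highest member of all, mRpL41/CG8079, among them. RNA polymerase II with its general factors and Mediator had 19 of 46 (41.3%, 27.0 to 56.8%), led by Taf5/Pex6 (signal 679), MED30/Rev1 (signal 580.4) and elm/MED27 (signal 566). The respiratory chain had 18 of 50 (36.0%), aminoacyl-tRNA synthetases 10 of 26 (38.5%) and the Polycomb and trithorax groups 8 of 20 (40.0%). In the Polycomb and trithorax groups brm/Arl1 (signal 1064) and E(z)/Cnep1r2 (signal 823) were highest; brm is the ATPase of a nucleosome remodeller and E(z) the histone H3 lysine methyltransferase of Polycomb. Insulator proteins had 5 of 8, led by Chro/Ssl1 (signal 1724, rank 25), Cp190/CG4338 (signal 1185, rank 65) and M1BP/CG8202 (signal 400.3). Each of these intervals includes 29.5%, and with few pairs the classes cannot be ranked.

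Proteasome genes were at 5 of 26 pairs (19.2%, exact 95% interval 6.55 to 39.4%) and splicing genes at 8 of 31 (25.8%). Chemosensory receptors had 1 of 23 pairs (4.35%, 0.110 to 21.9%), the gustatory receptor gene Gr32a with Idua, where the summit lay 795 bp from the receptor's start and 158 bp from that of Idua. Cuticle proteins had 0 of 9, which allows up to 33.6%. These are also long gaps, with medians of 459 and 872 bp. Of pairs with any gene of a named class 177 of 493 (35.9%) were occupied, beside 29.5% of all pairs. This count includes the pairs of cytoplasmic ribosomal protein genes, 39 of 56 of which were occupied. Both genes belonged to named classes in 38 pairs. Of these 13 were occupied, among them Dref/RpL13, IFT52/COX5B and su(Hw)/Polr2I. Among genes still known only by a CG number 377 of 1361 pairs (27.7%) were occupied.

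**Figure D4:**
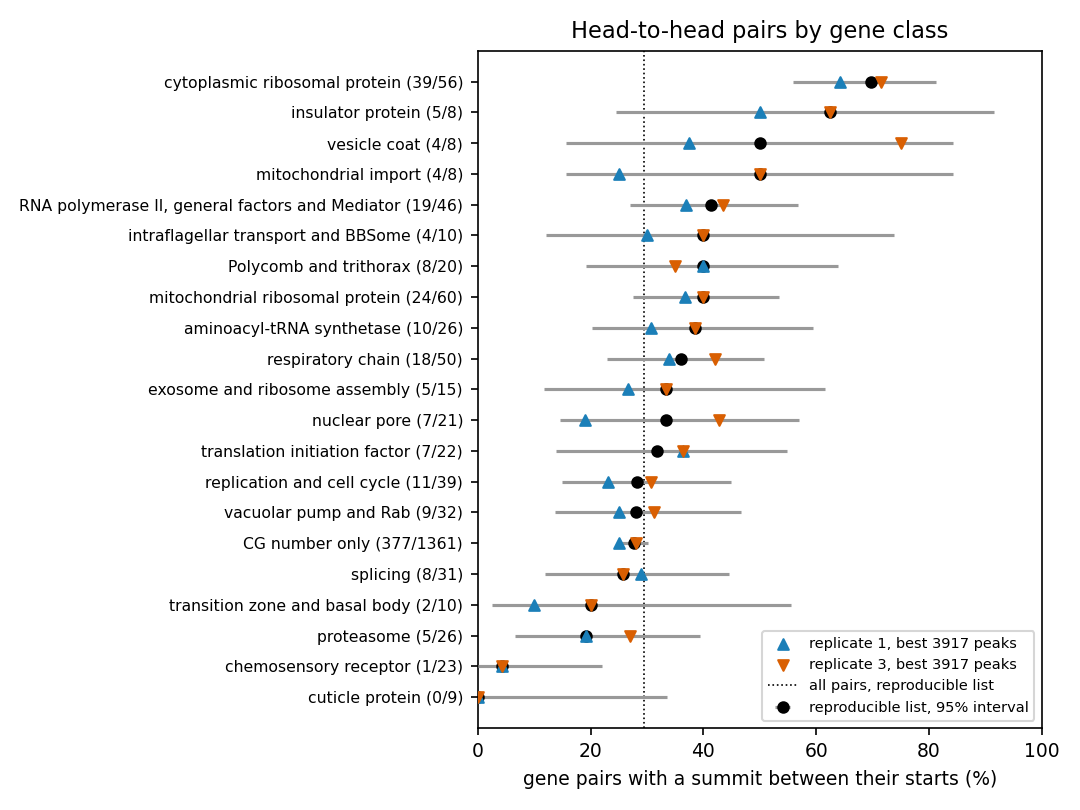
Share of head-to-head pairs with a summit (horizontal axis, %) for gene classes with at least 8 pairs, with occupied and total pairs in brackets. Black points and grey bars are the reproducible list with exact 95% intervals, triangles the best peaks of each replicate, and the dotted line the 29.5% of all pairs, which lies left of the interval of cytoplasmic ribosomal proteins and right of that of chemosensory receptors.

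Cilium genes, the class fd3F is known for, were few among the members and of low signal. Of 10 pairs with a gene of intraflagellar transport, the traffic that builds cilia, or of the BBSome, 4 were occupied. IFT52/COX5B had signal 185 and rank 2152 (ranks 3321 in replicate 1 and 1563 in replicate 3), and its summit was 24 bp from the start of IFT52. Klp64D/Cyt-c1, with the kinesin-2 motor gene Klp64D, had signal 145 (ranks 2554 and 3208). Oseg1/Exo70 had signal 137 (ranks 3895 and 2795), and Kap3/CG34348, with the accessory subunit of kinesin-2, had signal 132 (ranks 4730 and 3376). All 4 reproducible summits lay nearer the cilium gene than its partner, at a median of 107.5 bp. The replicate 1 summits of these pairs also lay nearer the cilium gene. In replicate 3 this held for IFT52/COX5B and Klp64D/Cyt-c1, but the summits of Oseg1/Exo70 and Kap3/CG34348 lay nearer the partner. The pairs of rempA, IFT57, IFT43, Oseg6 and BBS1 and the pair Oseg1/mtrm had no reproducible summit.

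Of the axonemal dynein list, CG14615/tilB was occupied (signal 123, rank 3615), with the summit nearer CG14615 than tilB, a dynein assembly factor gene, and mEFTs/Dhc36C was not. Of 10 transition zone and basal body pairs, gfzf/Sas-4 (signal 185, rank 2154) and Mks1/mdu (signal 124, rank 3562) were occupied. The Mks1/mdu peak had rank 6189 in replicate 1 and 2566 in replicate 3, outside the best peaks of replicate 1. Neither of the 2 chordotonal pairs, TbCMF46/CG42366 and unc/CG15445, had a reproducible summit. All 7 occupied cilium pairs ranked below 1959, the median of the reproducible list, and their low count gives no share that could be set apart from 29.5%.

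In the reproducible list the median signal of the members was above that of the other peaks. Signal is the caller's value for a peak relative to the control, on the scale of its own list. It serves here only to describe and rank peaks. The members had a median of 229 (quartiles 162 and 373, range 115 to 3362), against 215 for the summits upstream of other starts and 181 for the 2041 remaining summits. With the reproducible list cut by rank into 5 equal parts, members made up 26.2% of the highest part and 13.0% of the lowest, and the share was lower in each part down the list (22.1%, 20.4% and 15.8% between). In replicate 1 the highest and lowest parts held 22.7% and 11.7%, and in replicate 3 28.0% and 12.2%. Of the 20 highest peaks 9 were members and 5 lay upstream of other starts, and of the 500 highest 130 and 194. Median rank, counted from the highest, put members below summits upstream of other starts in replicate 1 (1763 against 1684). In replicate 3 it put members above them (1425 against 1706). By gap length the median signal was highest at 200 to 300 bp, at 265, against 223 at 300 to 500 bp and 208 at 500 to 1000 bp.

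The highest member, mRpL41/CG8079 on 2R, was second in the whole list (signal 3362) and had rank 2 in both replicates, with the summit 143 bp from mRpL41, a large-subunit mitochondrial ribosomal protein gene, and 619 bp from CG8079. Ugalt/eIF2Bbeta followed (signal 2951, ranks 3 and 4 in replicates 1 and 3). Its summit was 38 bp from Ugalt, which encodes a UDP-galactose transporter, and 681 bp from eIF2Bbeta, a gene for the exchange factor of translation initiation. Art3/mRpS10 came next (signal 2332, ranks 8 and 5), with the starts 125 and 132 bp away. PNPase/Gprk2 (signal 2119, ranks 7 and 16) had its summit 85 bp from PNPase, a mitochondrial exoribonuclease gene, in a gap of 677 bp. CG13390/CG17294 and Tcs5/CHMP2B had signals of 2036 and 2014. Others near the top were mRpS23/CenG1A, Pdrg1/Pal1, eIF4EHP/CG18428, Chro/Ssl1 and mRpL23/CG9004, with signals of 1926, 1925, 1808, 1724 and 1511. Chro encodes a chromodomain protein of interbands and the spindle, and eIF4EHP a cap-binding repressor of translation. All of the 12 highest members ranked within the first 50 peaks in both replicates, and 4 of them had a mitochondrial ribosomal protein gene on 1 side. Of all 764 members 24 had such a gene. The median signal of those 24 was 210, below the 229 of all members.

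Matches in the replicate lists were near complete. The reproducible list was itself drawn from these lists, so a high share follows in part from how it was made. A peak of both relaxed lists overlapped 752 of 764 members (98.4%), against 98.3% of the 3153 other reproducible peaks. Among the best 3917 peaks of both replicates 639 members (83.6%, exact 95% interval 80.8 to 86.2%) had a match, against 904 of 1112 summits upstream of other starts (81.3%, 78.9 to 83.5%) and 1531 of the 2041 remaining summits (exact 95% interval 73.1 to 76.9%). Over all reproducible peaks the share was 78.5%. A further 79 members were among the best of replicate 3 only, 34 among the best of replicate 1 only and 12 of neither. The median rank was 1763 in replicate 1 and 1425 in replicate 3. The summits upstream of other starts had 1684 and 1706 there, so members ranked below them in replicate 1 and above them in replicate 3. Replicate summits were a median of 25 bp apart. Of the 12 members lacking a peak in a relaxed list, 9 lacked it in replicate 3 and 3 in replicate 1. The 3 were ProRS-m/Snup, DAAM/fs(1)N and DCAF12/Spt3, with signals of 147, 141 and 140.1 in the reproducible list.

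The X chromosome had fewer occupied pairs than the large autosomal arms. A summit lay in 83 of 392 pairs on X (21.2%, exact 95% interval 17.2 to 25.6%), against 659 of 2112 on 2L, 2R, 3L and 3R (31.2%, 29.2 to 33.2%). The best peaks gave 18.9% against 28.6% in replicate 1 and 22.7% against 32.9% in replicate 3. Gap lengths did not differ much, with medians of 306 bp on X and 300.5 bp on the autosomal arms. At 200 to 300 bp the shares were 29.6% and 45.9%, at 300 to 500 bp the counts were 22 of 88 pairs and 213 of 526, and at 500 to 1000 bp the shares were 15.3% and 23.0%. Up to 100 bp the order was the other way, at 21.5% on X and 18.8% on the autosomal arms. Genes outside pairs gave 13.4% on X and 12.3% on the autosomal arms, so the lower share was not seen there. Members were 85 of 709 reproducible summits on X, against 679 of 3195 (21.3%) on the autosomal arms. The quartiles of their signal were 141 and 298 on X, against 166 and 378 on the autosomal arms. Single autosomal arms had 26.6% (2R, 136 of 512 pairs), 33.3% (3R, 206 of 618) and 34.6% (3L, 170 of 492), and 2L had 147 of 490 pairs. Chromosome 4 had none in 11 pairs. The comparison of X was chosen after the values by arm were seen, no test was run on it, and the sex of the embryos was not recorded.

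**Figure D5:**
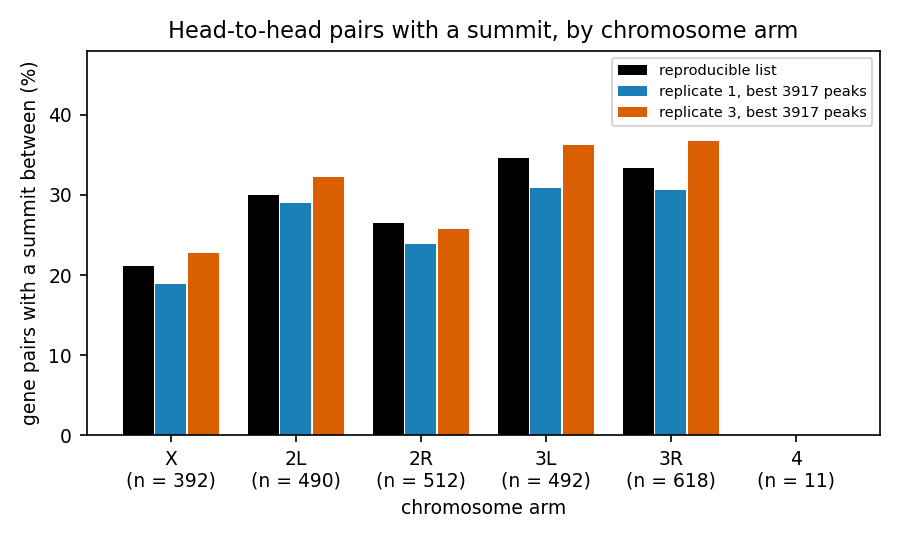
Share of head-to-head pairs with a summit (vertical axis, %) by chromosome arm (horizontal axis, with the number of pairs), for the reproducible list (black) and the best peaks of replicates 1 (blue) and 3 (orange). The X bar is the lowest of the large arms in each list, at 21.2% in the reproducible list against 26.6 to 34.6% on 2L, 2R, 3L and 3R.

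Forkhead words were as common at members as at other summits. Within 100 bp of the summit, on both strands, 60.5% of members held one (exact 95% interval 56.9 to 64.0%), against 59.5% of summits upstream of other starts, 60.2% of the remaining summits, 56.0% of windows at the centre of the 1773 empty gaps and 50.7% of windows at the members' median distance upstream of all 13945 protein-coding genes. Replicates 1 and 3 gave 60.4% and 59.9% for members. The contrast with empty gaps depended on the window. Within 50 bp, 43.2% of members (39.6 to 46.8%) held a forkhead word, against 39.9% of summits upstream of other starts, 30.8% of empty gap centres (28.7 to 33.0%) and 4317 of the 13945 promoters, and within 250 bp 85.5% of members against 83.4% of empty gap centres. Among the 462 members with a forkhead word within 100 bp, the nearest word was a median of 30 bp from the summit. The 302 members without one do not enter this distance. TGTTTAC, which is GTAAACA on the other strand and so one of those words, was in 6.54% of members, 8.29% of empty gap centres and 5.67% of all promoters. In gaps of 200 to 500 bp a summit was found in 41.3% of pairs with a forkhead word between the starts and in 38.4% of pairs without one. Matches of these short words are frequent in any AT-rich window, and mean GC content was 32.3% (SD 6.43) at members, 35.1% (SD 8.43) at empty gap centres and 38.1% (SD 8.92) at all promoters.

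The DRE was more frequent at members than at other summits. Within 100 bp it was in 8.51% of members (exact 95% interval 6.63 to 10.7%), against 2.34% of summits upstream of other starts and 0.882% of the remaining summits. Empty gap centres had it in 9.08% and all promoters in 6.50%. Within 50 bp it was in 2.75% of members (1.71 to 4.17%), against 5.75% of empty gap centres (4.71 to 6.94%), and within 250 bp in 20.5% against 18.2%. CGATA, the word of BEAF-32, which also lies inside TATCGATA, was in 40.2% of members, 29.1% of summits upstream of other starts, 43.2% of empty gap centres and 37.3% of all promoters. Motif 1 was less frequent at members than at empty gap centres in the narrower windows. For this and the other words, empty gap centres were not matched to members in distance to a start. The lower quartile of gap length was 133 bp in empty pairs and 226 bp in occupied pairs. A window of 100 bp to each side of the centre reaches both starts in gaps up to 200 bp. How far this enters the differences was not tested. Within 100 bp Motif 1 was in 3.01% of members (1.92 to 4.48%), against 6.60% of empty gap centres (5.49 to 7.86%) and 3.16% of all promoters. Within 50 bp it was in 0.916% of members and 3.55% of empty gap centres, but within 250 bp in 16.5% (13.9 to 19.3%) and 15.9% (14.2 to 17.7%). In gaps of 200 to 500 bp, 33.3% of the pairs with Motif 1 between the starts were occupied (24.7 to 42.9%), against 41.3% of those without (38.3 to 44.4%). The replicates gave 26.1% against 38.3% (replicate 1) and 36.9% against 43.1% (replicate 3).

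TATAAA was in 48.4% of members (44.8 to 52.0%), against 41.1% of summits upstream of other starts, 37.3% of the empty gap centres (661 of 1773) and 37.7% of all promoters. These letters hold no G or C, GC content was lower at members, and its part in this difference was not tested. In gaps of 200 to 500 bp the occupied share was 41.9% with TATAAA and 38.6% without. GAGAG, the word of GAGA factor, was in 13.1% of members, against 20.9% of summits upstream of other starts, 14.9% of empty gap centres and 22.2% of all promoters. The E-box CANNTG, which reads the same on both strands, was in 53.7% of members, 60.9% of empty gap centres and 60.5% of all promoters. Base composition moved with occupancy at its upper end. Of pairs 200 to 500 bp apart, 41.3% were occupied where the gap had under 30% GC, 44.9% at 30 to 35%, 41.1% at 35 to 40% and 26.1% (19.5 to 33.6%) at 40% or more, and the last share was 23.6% in replicate 1 and 25.5% in replicate 3.

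A limit of 2000 bp gave 935 summits, against 764 with the limit of 1000 bp. Just inside 1000 bp lay Smg5/Ance (984 bp, signal 173), Pax/Lectin-galC1 (977 bp, signal 327) and Hsp68/SMC1 (977 bp, signal 144). Just outside lay Eno/Rrp40 (1015 bp, signal 1011) and Rpn11/qtc (1025 bp, signal 186). The Hsp68/SMC1 summit stood 63 bp from SMC1, and the others between 171 and 272 bp from the nearer start.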

How the data were processed

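All peak lists were taken as the authors deposited them. They use build dm6, per the deposited file descriptions, with 1 for each replicate, 1 for both pooled and 1 of reproducible peaks. Caller, aligner and thresholds are not given in the sources read here. For each peak the deposited score (its signal) is relative to a control alignment and on the scale of its own list. The −log10 q-values of the authors were not analysed. The reproducible list held the 3917 highest peaks of the pooled list. No read counts were given, so depth is unknown.

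Start sites came from the Ensembl 115 annotation (FlyBase 6.54), and the gene pair was the nearest minus-strand start to the left and plus-strand start to the right of the summit. A pair with several starts was measured by its shortest gap, and a summit by the tightest gap around it. Densities were summits per base of gap, of sequence up to 1000 bp upstream of unpaired genes, or of bases whose nearest start is downstream. A replicate match was an overlap of at least 1 bp with its highest peak there. Words were searched in the Release 6 sequence within 100 bp of summits. Intervals are exact (Clopper-Pearson, 95%) and cover counting error only. No test was run, since there was 1 group and regions are not replicates. Scripts used Python 3.11.15, numpy 2.4.6, scipy 1.17.1 and matplotlib 3.10.9, and the search for enclosing starts was tested on simulated starts.

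Members, gene classes and words were chosen with earlier results of these data known. Classes were matched by symbol, and wrongly caught symbols were removed after first counts had been seen. The comparison of X, the distances of ribosomal summits, the densities at matched distance, the gaps with 2 summits and the occupancy by word or GC content were added after values had been seen. Genes named were those of the 12 members of highest signal, of the highest 3 gaps in each class, of the shortest and longest gaps, of gaps with 2 summits and of the cilium classes; others were named after their values had been seen, and a few that the rule would name are not reported here. Sequences were drawn from the highest members with gaps of 80 to 300 bp that lie outside arm 2R and contain no annotated exon (196 of 259 such gaps). Alternatives were each replicate alone, other limits and start sites, the upper part by signal, other match rules and other windows.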

Additional observations from a re-analysis of the deposited data

How the results depend on the processing

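The number of summits between head-to-head starts stayed within 1.5 times of 764 under every alternative tried: it was 694 to 813 with 1 replicate left out, 587 and 935 with limits of 500 and 2000 bp, 576 with 1 start per gene, 831 with all gene types and 765 with summits at a start counted. The share of pairs with a summit (29.5%) was 27.0 to 31.2% with 1 replicate left out, 27.0% at 2000 bp, 24.7% with 1 start per gene and 18.2% with the stronger 50% of peaks. The share in the central 50% of the gap (69.9%) was 77.0% at 500 bp, 60.9% at 2000 bp and 74.2% among the stronger 50%. The share matched in both replicates (98.4%) was 83.6% against the best peaks, 93.7% with both summits in the same gap, 92.3% with overlap of at least 0.5 of the interval and 99.6% among the stronger 50%. The share of windows with a forkhead word (60.5%) was 43.2% with 50 bp and 85.5% with 250 bp to each side. The order of members and empty gaps in TGTTTAC, DRE and Motif 1 shares also moved with the window. A stricter list, a wider limit and a wider window change these shares by construction. Class counts in replicate 1 alone fell outside 1.5 times the count for nuclear pore (4 pairs, against 7), mitochondrial import (2, against 4), axonemal dynein (0, against 1) and transition zone (1, against 2). No paired analysis was possible because there was 1 group and no contrast. Depth is not known, so an empty gap is one with no summit in the list, not one shown to be unbound.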
